A study of Mus musculus with 8 samples.

Results

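Long noncoding RNAs that are held in the nucleus, or that serve as hosts for small RNAs, were followed in RNA recovered from tagged ribosomes of the mouse retina. The 10 RNAs were chosen by symbol: Malat1, Neat1, Miat, Mir124a-1hg, Hk1os, Snhg11, Snhg1, Snhg12, Snhg14 and Gas5. Of these, 9 were among the 12339 genes of the deposited table, and Snhg14 was not in it. They were chosen with their WT and knockout values known, so their differences between the groups are given as a description, without a test.

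The libraries came from Müller cells, which are glia that span the depth of the retina, in oxygen-induced retinopathy (OIR). Here mouse pups first breathe excess oxygen, which stops retinal vessels from growing, and then room air, in which the poorly vascularised retina lacks oxygen. RiboTag marks a ribosomal protein in cells that express Cre, and the tagged ribosomes are pulled down with their RNA. There were 4 wild-type libraries (WT) and 4 libraries in which Nrf2 was conditionally knocked out in Müller cells (cKO), all from OIR retinas at postnatal day 14, and both groups carried the numbers 1, 3, 4 and 5. Nrf2, encoded by Nfe2l2, is a transcription factor of the antioxidant response. The labels name no Cre driver, deleted exon, sex or litter, and do not say whether a library came from 1 animal. Any p-value therefore measures the spread between these libraries only.

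Most messenger RNAs leave the nucleus and meet ribosomes, whereas Malat1, Neat1 and Miat are known to stay in nuclear bodies. Host RNAs have another fate. The introns of snoRNA hosts are cut into small nucleolar RNAs that guide the modification of ribosomal RNA, and the spliced remainder of Gas5, Snhg1 and Snhg12 reaches the cytoplasm, where it is translated briefly and destroyed by nonsense-mediated decay. Mir124a-1hg is the precursor of miR-124, the most abundant microRNA of neurons.

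FPKM (fragments scaled to transcript length and to the fragments of the library) summed to between 410581 and 448130 per library, with medians of 14.6 to 15.8, and 2 to 11 genes per library were listed at 0. The number of fragments behind a value is unknown. Nfe2l2 was at 17.5, 18.8, 23.1 and 17.5 FPKM in WT libraries 1, 3, 4 and 5 and at 12.7, 16.5, 14.8 and 10.4 in the cKO libraries of the same numbers. Every cKO value lay below every WT value, with a log2 difference of −0.50 (adjusted p = 0.0219, limma with the replicate number as a block). Of the Müller cell markers 11 of 11 were measured, and their summed level was 8549 to 14481 FPKM in WT and 8562 to 12589 in cKO. With the block 2 of them fell and 0 rose, 9 of 11 had a negative log2 difference, and the median was −0.13. Rod markers summed to 3381 to 5285 and 3610 to 5503 FPKM (11 of 11 measured, 1 rose and 0 fell), so the RNA was not of Müller cells alone. Xist, the RNA that coats the inactive X chromosome, was at 58.1, 72.1, 39.9 and 27.0 FPKM in WT and at 25.01, 50.004, 0.0863 and 0.00505 in cKO. Libraries cKO 4 and cKO 5 thus stood apart from the other 6 by Xist, and differences within pairs 1 and 3 are given beside the results.

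The ends of Malat1 and Neat1 are shown because the libraries were poly(A)-selected, and Malat1 and the long form of Neat1 are known to lack a usual poly(A) tail. Both are cut by RNase P downstream of an A-rich tract encoded in the genome, which pairs with U-rich motifs in a triple helix. The stretches below are from GENCODE M21 transcripts on GRCm38, 100 bases each, and capitals mark AAAGCAAAA, which closes the A-rich tract, and TTTCTTTTC, from a U-rich motif, each found once in either transcript. AAAGCAAAA began at position 6683 of the 6983-base Malat1 transcript (chr19:5795982-5796081, minus strand), which ran on for 292 bases after it. In Neat1 it began at position 20763 of 20771 (chr19:5824708-5824807, minus strand), at the very end of the annotated transcript.
Malat1: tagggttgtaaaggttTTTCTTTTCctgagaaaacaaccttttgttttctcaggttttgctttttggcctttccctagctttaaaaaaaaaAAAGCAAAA
Neat1: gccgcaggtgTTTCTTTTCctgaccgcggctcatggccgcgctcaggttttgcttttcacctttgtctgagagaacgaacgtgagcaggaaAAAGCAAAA

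Gas5 and Snhg12 are known as 5′ terminal oligopyrimidine RNAs, a class with ribosomal protein mRNAs whose transcripts start in a run of C and T. The 50 bases around the RefSeq start are printed below (20 before it and 30 from it, GRCm38.p6). They are shown for the second annotated start of Gas5 (chr1:161035146-161035195, plus strand) and for Snhg12 (chr4:132308658-132308707, plus). Snhg1 (chr19:8723467-8723516, plus) and Malat1 (chr19:5802643-5802692, minus) are shown as members without the string CTTTC. Capitals mark CTTTC, searched on the transcribed strand within 5 bases of the start. It was in 2 of the 9 windows of the 7 members with a RefSeq window, against 1.66% of 32851 windows of all genes. Hk1os, Miat and Snhg11 had none, and Mir124a-1hg and Neat1 had no window here. The string alone does not decide membership of the class. Snhg1 lacks it, yet its first bases from the start are mostly C and T. TGACNNNGC, the core of the antioxidant response element that Nrf2 binds, was searched on both strands of the 300-base windows. It was in 0 of the 9, against 12.4% of all.
Gas5: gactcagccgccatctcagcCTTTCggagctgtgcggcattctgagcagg
Snhg12: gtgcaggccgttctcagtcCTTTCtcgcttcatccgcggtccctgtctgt
Snhg1: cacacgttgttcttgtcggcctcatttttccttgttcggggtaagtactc
Malat1: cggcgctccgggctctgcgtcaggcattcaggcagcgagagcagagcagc

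The 9 RNAs fell into 3 patterns. Malat1, Neat1, Miat, Mir124a-1hg and Snhg11 were lower in cKO in all 4 same-numbered pairs, yet they varied so widely between libraries that WT and cKO overlapped. Hk1os was higher in all 4 pairs, with the groups apart. Gas5, Snhg1 and Snhg12 stayed near their WT level. Over all genes, 19.5% were lower and 16.7% higher in all 4 pairs. The median log2 difference, cKO minus WT on log2(FPKM + 0.5), was −0.29 over the 9 RNAs and 0.00 over all genes. Fewer cells of a type and less of an RNA per cell cannot be told apart in such bulk libraries.

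**Figure D1:**
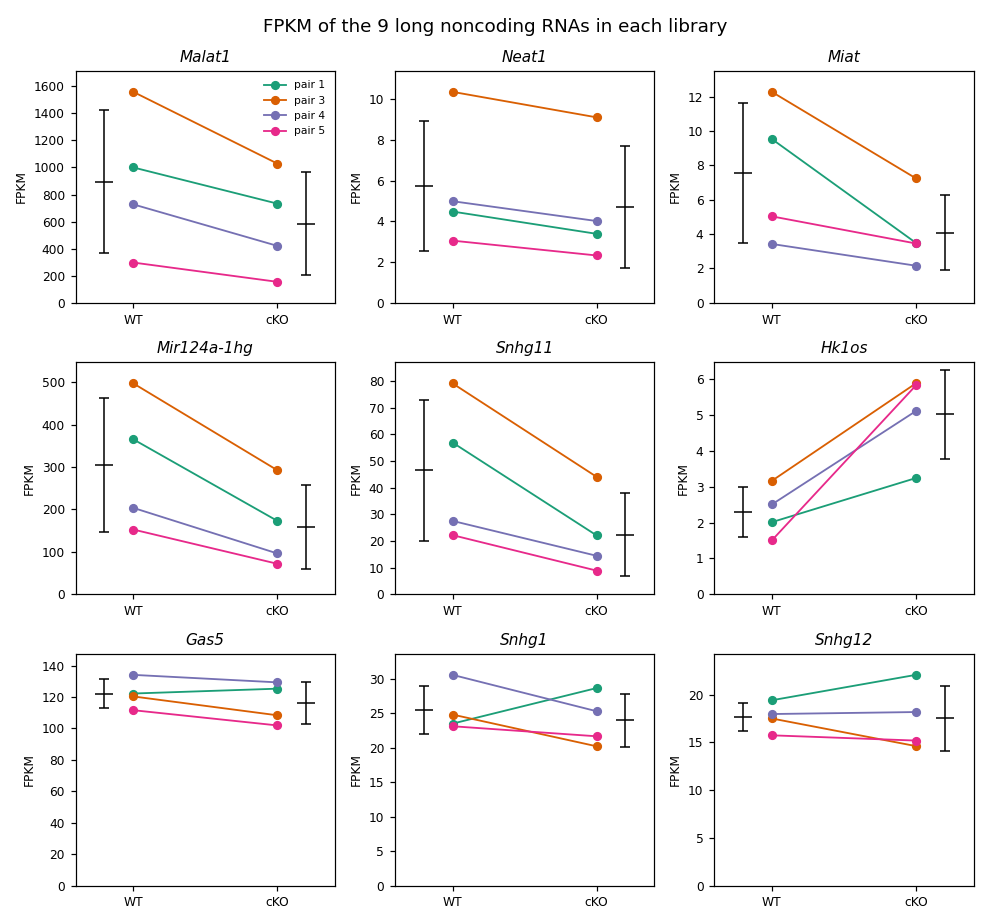
FPKM (linear axes from 0) of the 9 RNAs in WT and cKO, with a line joining the libraries of the same number and bars for the mean ± SD of 4 libraries. All lines fall for Malat1, Neat1, Miat, Mir124a-1hg and Snhg11, all rise for Hk1os, and the lines of Gas5, Snhg1 and Snhg12 run in both directions.

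Malat1, an abundant RNA of nuclear speckles, was at 1000.3, 1559, 727 and 298 FPKM in WT libraries 1, 3, 4 and 5 and at 733, 1029, 421 and 155 in the cKO libraries of the same numbers. Library 3 was the highest and library 5 the lowest in both groups, and 3 of the 4 WT values lay below the highest cKO value. The means were 896 ± 528 FPKM (WT) and 584 ± 379 FPKM (cKO; SD, n = 4 each), a log2 difference of −0.69. Within pairs 1, 3, 4 and 5 the log2 differences were −0.45, −0.60, −0.79 and −0.94. Single libraries weighed on the difference of the means, which was −0.16 without cKO 5, −0.35 without WT 3, −1.07 without cKO 3 and −1.15 without WT 5. The highest WT library held 5.24 times the FPKM of the lowest, and in cKO this was 6.64 times. For the median gene, the WT libraries differed by 1.38 times, and for 95% of genes by less than 2.45 times. By its mean in WT, Malat1 stood at percentile 99.8 of all genes. It lies on chromosome 19, from 5795690 to 5802672 on the minus strand, and is annotated as a lincRNA.

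Neat1, the scaffold of paraspeckles, is the neighbour of Malat1 on the same strand (chromosome 19, 5824708 to 5845478). It was at 4.48, 10.4, 4.99 and 3.05 FPKM in WT and at 3.39, 9.10, 4.01 and 2.32 in cKO. Library 3 was far above the others in both groups, and the groups overlapped widely. The means were 5.72 ± 3.20 and 4.71 ± 3.01 FPKM (SD, n = 4 each), with a log2 difference of −0.29 and pair differences of −0.36, −0.18, −0.28 and −0.33. The difference was −0.63 without cKO 3, −0.51 without WT 5 and −0.04 without cKO 5, and without WT 3 it turned to 0.02. The FPKM ratio of Malat1 to Neat1 was 66.7 to 223 over the 8 libraries. Malat1 and the long form of Neat1 lack a usual poly(A) tail. After poly(A) selection, this ratio may differ from that of the RNAs in the cells.

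Miat, a nuclear RNA of neurons and of retinal precursor cells (chromosome 5, 112213228 to 112229395, minus strand), was at 9.54, 12.3, 3.43 and 5.03 FPKM in WT and at 3.49, 7.25, 2.16 and 3.45 in cKO. Libraries 1 and 3 were the highest in both groups, and 2 WT values lay below the highest cKO value. The means were 7.57 ± 4.07 and 4.09 ± 2.20 FPKM (SD, n = 4 each), a log2 difference of −0.77, or −0.50 without WT 3. Its pair differences were the most uneven of the lower 5 RNAs, at −1.33, −0.72, −0.56 and −0.48. The largest was in pair 1, in which both libraries held Xist.

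Mir124a-1hg, the host of the Mir124a-1 hairpin, lies on chromosome 14, from 64587331 to 64593961 on the plus strand. Mir124a-1 (64590657 to 64590741) and Mir3078 (64591185 to 64591271) overlapped exons of the transcript with the most exons, so the spliced RNA can still hold them. The host was at 365, 497, 204 and 153 FPKM in WT and at 173, 292, 96.3 and 72.0 in cKO. The libraries were ordered 3, 1, 4, 5 from high to low in both groups, the order seen for Malat1, and 2 WT values lay below the highest cKO value. The means were 305 ± 157 and 158 ± 99.2 FPKM (SD, n = 4 each). The log2 difference was −0.999, and the pair differences of −1.08, −0.76, −1.08 and −1.08 were close to one another.

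Snhg11 is a neuronal snoRNA host on chromosome 2 (158375638 to 158386145, plus strand), with 2 snoRNAs in its introns. The annotation classes it as protein coding. It was at 56.9, 79.1, 27.5 and 22.2 FPKM in WT and at 22.1, 44.0, 14.4 and 8.88 in cKO. The order 3, 1, 4, 5 recurred in both groups, which overlapped. The means were 46.4 ± 26.6 and 22.4 ± 15.4 FPKM (SD, n = 4 each), a log2 difference of −1.09, with pair differences of −1.35, −0.84, −0.91 and −1.27. Although Snhg11 is a snoRNA host by name, its pattern over the libraries was closer to that of Mir124a-1hg than to that of Gas5. The ratio of Mir124a-1hg to Snhg11 was between 6.29 and 8.10 in all 8 libraries. A ratio of Snhg11 to Gas5 was not computed. Between other members, that of Malat1 to Gas5 ran from 1.52 to 13.0. Over the 8 libraries, Pearson's r of log2(FPKM + 0.5) was 0.995 between Mir124a-1hg and Snhg11, 0.921 between Malat1 and Mir124a-1hg and 0.231 between Snhg11 and Gas5. These points share their library and scaling.

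Hk1os is a spliced antisense RNA on chromosome 10 (62340256 to 62363367, plus strand) that lies inside Hk1 (62268855 to 62379908, minus strand), which encodes the glycolytic enzyme hexokinase 1. It was at 2.01, 3.16, 2.50 and 1.501 FPKM in WT and at 3.24, 5.88, 5.10 and 5.82 in cKO. Every cKO library lay above every WT library, which held for 2.06% of all genes. The reverse, every cKO below every WT library, held for 2.28% of all genes and for 0 of the 9 RNAs. The edge was narrow: the lowest cKO value was 3.24 and the highest WT value 3.16. The means were 2.29 ± 0.708 and 5.01 ± 1.23 FPKM (SD, n = 4 each), a log2 difference of 0.98. The pair differences were 0.58, 0.80, 0.90 and 1.66, so that pairs 1 and 3 gave 0.69 and pair 5 was the largest. By its mean in WT it stood at percentile 2.40 of the table.

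Hk1 was at 183, 177, 159 and 192 FPKM in WT and at 202, 200.2, 179 and 243 in cKO. It was higher in all 4 pairs, by 0.21 on the log2 scale, with overlapping groups (adjusted p = 0.0734 with the block, limma). The FPKM ratio of Hk1 to Hk1os was 84.6 ± 32.5 (WT) and 43.4 ± 13.2 (cKO; SD, n = 4 each). The libraries were made with a directional kit, but the strand setting of the counting is not given in the sources used here, and the deposited position of Hk1os spans Hk1. Reads of the 2 strands can be told apart only if strand was used, so the value of Hk1os is uncertain. For Snhg14, which lies opposite Ube3a, no value is given. Ube3a, a ubiquitin ligase gene, averaged 35.5 ± 4.18 (WT) and 36.6 ± 2.72 FPKM (cKO; SD, n = 4 each), with a log2 difference of 0.05 (adjusted p = 0.696 with the block, limma).

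Gas5, host of 10 annotated snoRNA entries in its introns (chromosome 1, 161034422 to 161038539, plus strand), had the most even level of the 9. It was at 122, 120.3, 134 and 112 FPKM in WT and at 125, 108, 129 and 102 in cKO. The groups overlapped, and the means of 122 ± 9.24 and 116 ± 13.1 FPKM (SD, n = 4 each) differed by −0.07 on the log2 scale. The pair differences were 0.04, −0.15, −0.05 and −0.13. Its deposited position also spans Zbtb37 on the other strand, so the limit on strand given for Hk1os applies to its value too. The same limit applies to Malat1, which Gm37376 overlaps on the other strand, and to Miat, overlapped there by Gm26953. The deposited position of Miat runs to 112233720, past its annotated end. Zbtb37 itself was not among the measured genes.

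Since the polyadenylated Gas5 RNA is what remains once its introns are removed, its FPKM does not measure the snoRNAs themselves. A pair of them is printed to show what the introns carry: Snord47 (chr1:161038082-161038158, plus strand, 77 bases) and Snord80 (chr1:161037601-161037681, plus strand, 81 bases), both from GENCODE M21. Capitals mark the letters TGATGA of box C and CTGA of box D, the pair of motifs that the snoRNA proteins bind. TGATGA and CTGA each occurred once in Snord47 and 2 times in Snord80, where the outer copies are in capitals.
Snord47: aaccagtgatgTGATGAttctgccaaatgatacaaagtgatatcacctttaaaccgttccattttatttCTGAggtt
Snord80: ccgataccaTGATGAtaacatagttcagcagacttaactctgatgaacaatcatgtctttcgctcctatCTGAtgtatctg

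Snhg1, on chromosome 19 (8723475 to 8726443, plus strand) with 8 intronic snoRNAs, was at 23.5, 24.8, 30.6 and 23.1 FPKM in WT and at 28.6, 20.2, 25.3 and 21.7 in cKO. It was higher in pair 1 and lower in the other 3, with means of 25.5 ± 3.45 and 23.95 ± 3.79 FPKM (SD, n = 4 each) and a log2 difference of −0.09. Snhg12, on chromosome 4 (132308623 to 132311024, plus strand) with 5 entries for intronic snoRNAs, was at 19.4, 17.5, 18.0 and 15.7 FPKM in WT and at 22.1, 14.6, 18.2 and 15.2 in cKO. It was higher in 2 pairs and lower in 2, and the group means were 17.7 ± 1.51 and 17.5 ± 3.42 FPKM (SD, n = 4 each), with a log2 difference of −0.03. For these 3 hosts the differences were smaller than the spread between libraries. They kept steady proportions: the ratio of Gas5 to Snhg1 was 4.37 to 5.36, and that of Gas5 to Snhg12 was 5.67 to 7.46, over the 8 libraries.

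**Figure D2:**
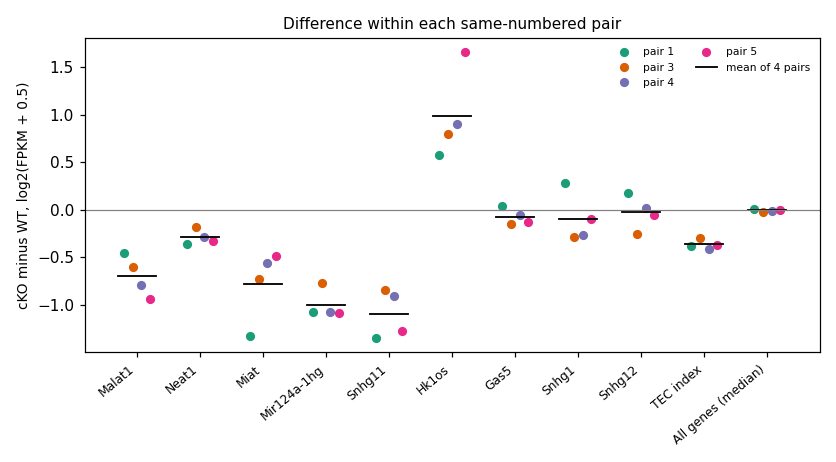
Difference cKO minus WT on log2(FPKM + 0.5) within each pair of same-numbered libraries (points) and the mean of 4 pairs (lines), for the 9 RNAs, for the TEC index (the mean log2 value of the 81 genes in the TEC and sense intronic classes) and for the median of all genes. The pair medians of all genes lie between −0.02 and 0.01, while all 4 points of Malat1, Neat1, Miat, Mir124a-1hg, Snhg11 and the index lie below 0.

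In the test across all genes without a block, 0 of 12339 genes passed at an adjusted p of 0.05 (limma), and 1310 had an unadjusted p below 0.05. The same-numbered libraries deviated together, so the fit was repeated with the replicate number as a block, and 1305 genes passed, or 10.6%. Lower calls made up 7.59% of all genes and higher calls 2.99%. Among the 9 RNAs, Malat1, Miat, Mir124a-1hg and Snhg11 were called lower, Hk1os was called higher, and Neat1, Gas5, Snhg1 and Snhg12 were not called. Since this contrast chose the RNAs, these calls are no support for their difference. The calls of the block fit named below are lost without the block, where the smallest adjusted p of any gene was 0.149. They are also lost with the block and the TEC index as a covariate together, a setting chosen after seeing the data: 0 genes passed, 601 had an unadjusted p below 0.05, and the smallest adjusted p was 0.178 (limma). The index was lower in cKO by a similar amount in every pair (−0.38, −0.29, −0.41 and −0.36). In that fit it can therefore hardly be told apart from the group, and a loss of calls was to be foreseen for any gene. With pairs 1 and 3 alone, the log2 differences were −0.52 for Malat1, −0.27 for Neat1, −1.03 for Miat, −0.92 for Mir124a-1hg, −1.09 for Snhg11 and −0.06 for Gas5.

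The library order of Malat1, Mir124a-1hg and Snhg11 was also that of the mean over a group of genes that the choice of RNAs did not use. GENCODE classes 72 measured genes as TEC, transcripts still to be experimentally checked, and 9 as sense intronic. Of the 81, 21 lay inside a protein-coding gene on the same strand, 17 inside one on the opposite strand only, and 43 outside. Their mean log2(FPKM + 0.5), called the TEC index here, was 2.59, 2.76, 2.27 and 2.01 in WT libraries 1, 3, 4 and 5 and 2.22, 2.46, 1.86 and 1.64 in cKO. Library 3 was again the highest and library 5 the lowest in both groups, which overlapped. The index was lower in cKO by −0.38, −0.29, −0.41 and −0.36 in pairs 1, 3, 4 and 5. With the block, 26 of the 81 genes fell and 0 rose.

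Over the 8 libraries, Pearson's r with the TEC index was 0.994 for Mir124a-1hg, 0.987 for Snhg11, 0.953 for Malat1, 0.838 for Miat and 0.820 for Neat1. It was 0.290 for Gas5, 0.237 for Snhg12, 0.073 for Snhg1 and −0.312 for Hk1os. These are descriptions of 8 points that share library and scaling, and the index itself differed between the groups. The order 3, 1, 4, 5 in both groups was shared by Malat1, Mir124a-1hg and Snhg11 and by 411 genes in all, or 3.33%. Neat1, Miat and Gas5 also kept their own order in both groups, as did 15.5% of all genes. With the index as a covariate in place of the block, the log2 difference was 0.40 for Malat1, 0.33 for Neat1, −0.20 for Miat, −0.14 for Mir124a-1hg and −0.17 for Snhg11. Malat1 and Neat1 thus changed sign, while Hk1os was at 1.08 and Gas5 at −0.05. The part of this index in the lower values of the nuclear RNAs was not tested.

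**Figure D3:**
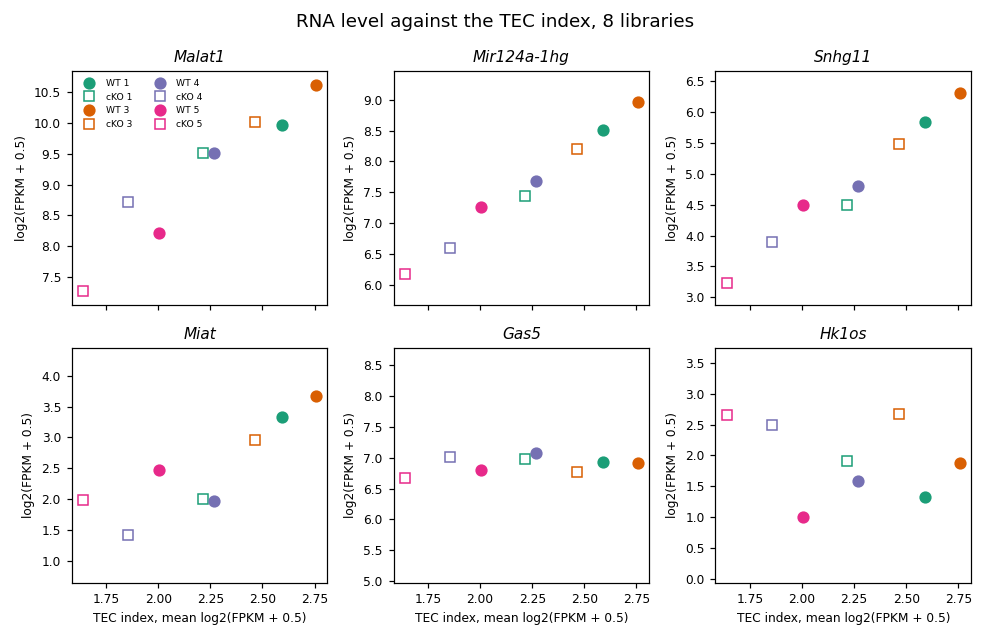
Level of 6 of the RNAs, log2(FPKM + 0.5), against the TEC index in 8 libraries (filled circles WT, open squares cKO, one colour per number; every vertical axis has its own range). Mir124a-1hg and Snhg11 lie close to a line (r = 0.994 and 0.987), Gas5 is nearly level, and the cKO squares of Hk1os lie above its WT circles.

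The genes whose pattern over the 8 libraries was most like that of an RNA were sought by Pearson's r of log2(FPKM + 0.5), leaving out clone names. For Malat1 these were Pitpnm2os2 (r = 0.983), Mon2 (0.980) and Col20a1 (0.979). For Mir124a-1hg they were Meg3 (0.999), a maternally expressed imprinted RNA of the nucleus, Igf2r (0.996) and Snhg11. For Hk1os they were Hk2 (0.945), which encodes hexokinase 2, Rgs5 (0.917), a pericyte marker, and Enox2 (0.915). Hk2 averaged 17.8 FPKM in WT and 27.4 in cKO. For Gas5 they were Phkb (0.965), Snx2 (0.954) and Wrap53 (0.936). The 3 likest of 12339 genes at 8 points are a description. The group means were not removed, so an r can partly restate a difference between WT and cKO that both genes share. Hk1os was chosen with its difference known, and Hk2, Rgs5 and Enox2 all had a higher mean in cKO.

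Other RNAs of the same classes were counted from lists, with calls from limma with the block. Of 13 measured other snoRNA hosts, 1 fell, 0 rose and 12 did not pass, and the median log2 difference was −0.15. The one that fell was Snhg20, at 41.0, 52.2, 40.2 and 18.8 FPKM in WT and 22.5, 29.9, 16.4 and 12.6 in cKO (log2 difference −0.87, adjusted p = 0.0044). It was lower in all 4 pairs, and library 5 was the lowest of each group. Dancr (−0.68, adjusted p = 0.0644), Snhg15 (−0.41, 0.0797) and Snhg8 (−0.22, 0.137) did not pass. In all, 10 of the 13 had a negative log2 difference.

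Of 8 measured other miRNA hosts, 3 fell, 0 rose and 5 did not pass, with a median of −0.30. A330023F24Rik (log2 difference −0.998, adjusted p = 0.00275, limma with the block) and Mirg (−1.002, 0.00588) fell, as did Mir22hg (−0.47, 0.0421). Mirg carries the miRNA cluster of the imprinted Meg3 region. Mir124-2hg, another host of miR-124, was at 194, 241, 149 and 198 FPKM in WT and at 152, 168, 148 and 147 in cKO, and did not pass (−0.33, adjusted p = 0.0564). Its cKO libraries lay within a much narrower range than those of Mir124a-1hg, though both hosts were lower in all 4 pairs.

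Of 22 measured other genes in a list of long noncoding RNAs (which also held Lars2, a protein-coding gene), 5 fell, 1 rose and 16 did not pass, with a median of −0.26. Meg3 was at 206, 282, 108 and 81.3 FPKM in WT and at 91.1, 147, 52.5 and 37.1 in cKO, again in the order 3, 1, 4, 5 (log2 difference −1.06, adjusted p = 0.00162, limma with the block). Rian, from the same imprinted region, fell by 0.91 (adjusted p = 0.00162), Firre, an X-linked nuclear RNA, by 0.92 (0.00288) and Vax2os, a retinal antisense RNA, by 0.53 (0.00835). Bc1, a cytoplasmic RNA of neurons, also fell (−0.61, 0.0409), and Otx2os1, antisense to the photoreceptor and bipolar gene Otx2, rose (0.33, 0.027). These last 2 were named as the remaining calls, outside the rule for named genes. Xist was lower in all 4 pairs, by −1.20 and −0.52 in pairs 1 and 3.

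Over the whole annotation, 58 of 527 other genes in long noncoding classes fell (11.0%) and 10 rose (1.90%), with a median log2 difference of −0.05. Among 11516 protein-coding genes, 835 fell (7.25%) and 354 rose (3.07%), with a median of 0.01. The members were left out of these counts, and the difference between the classes was not tested.

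Genes for proteins of the nuclear bodies that hold these RNAs were counted next. All 24 genes of a list of paraspeckle and speckle proteins were measured: 5 fell, 0 rose and 19 did not pass, with a median of −0.09. Son, a scaffold protein of nuclear speckles, where Malat1 resides, was at 211, 288, 159 and 144 FPKM in WT and at 122, 173, 102 and 68.5 in cKO (log2 difference −0.81, adjusted p = 0.00256, limma with the block). Srrm2, the other large speckle protein, was lower by −0.69 (0.00191). The splicing factor genes Srsf1 (−0.37, 0.0186), Srsf2 (−0.31, 0.0282) and Srrm1 (−0.32, 0.0284) fell too, the last named as the remaining call of the list. Nono (0.06), Sfpq (0.05) and Pspc1 (0.02), the core proteins of paraspeckles, did not pass; they were named after their values were seen.

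**Figure D4:**
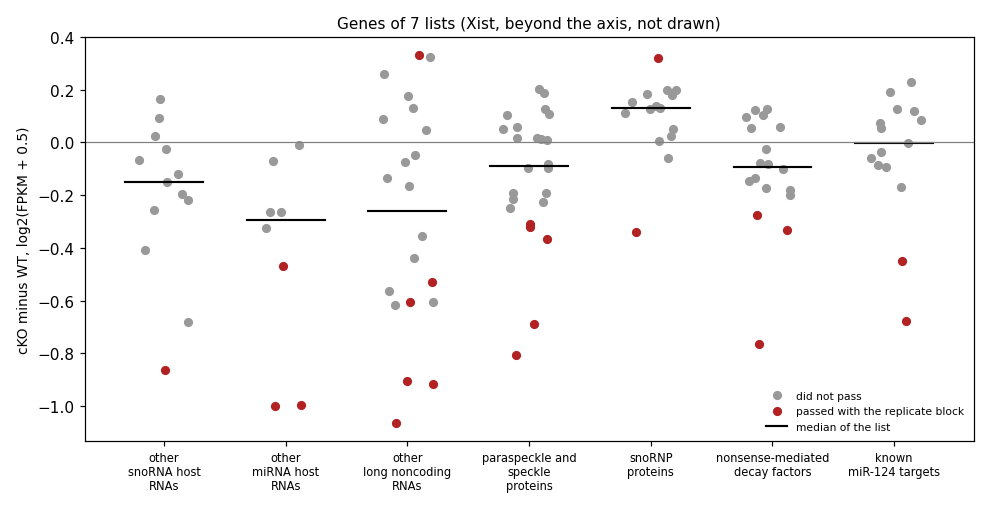
Difference cKO minus WT on log2(FPKM + 0.5) for the measured genes of 7 lists (points), with the list median (lines). Xist (−3.40), beyond the axis, is not drawn but enters the median of the long noncoding RNAs. Red points passed at an adjusted p of 0.05 in limma with the replicate block. Red points lie mostly below 0 in the lists of miRNA hosts, long noncoding RNAs and speckle proteins, and most genes of every list are grey.

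Of 15 measured snoRNP genes, whose proteins bind the snoRNAs, 1 rose, 1 fell and 13 did not pass, with a median of 0.13. Nop56, a box C/D core protein gene, fell (−0.34, adjusted p = 0.0265, limma with the block), and Nop10, of the H/ACA particle, rose (0.32, 0.0377). Znhit6 (0.20, 0.104) and Naf1 (0.20, 0.205) did not pass. Of 18 measured genes for nonsense-mediated decay, the process that degrades spliced Gas5, 3 fell, 0 rose and 15 did not pass, with a median of −0.09. Smg1, the kinase that acts on Upf1, was at 31.9, 39.7, 20.9 and 15.9 FPKM in WT and at 16.0, 24.5, 11.8 and 10.3 in cKO, in the order 3, 1, 4, 5 in both groups (log2 difference −0.76, adjusted p = 0.00275). Upf3b (−0.33, 0.0215) and Smg6 (−0.28, 0.0408) fell too.

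Of 15 measured genes known as targets of miR-124, 2 fell, 0 rose and 13 did not pass, and the median log2 difference was 0.00. Jag1, a Notch ligand gene (−0.68, adjusted p = 0.0225, limma with the block), and Iqgap1, a scaffold of the cytoskeleton (−0.45, 0.0436), were lower. Ctdspl (0.19, 0.284) and Sox9 (0.12, 0.335), a Müller cell transcription factor gene, did not pass. Of 18 measured genes that overlap or neighbour the 10 RNAs, 0 passed with the block and 0 without it, and the median was 0.09. The smallest p-values among them were those of Snrpn (0.23, adjusted p = 0.0638), Hk1, Ralgapb (−0.29, 0.0785), which lies beside Snhg11, and Xkr6 (−0.25, 0.0937), near Mir124a-1hg.

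Of the 22 genes in these lists that passed with the block, 10 passed in each of the 4 fits that left out 1 pair: Snhg20, A330023F24Rik, Mirg, Meg3, Rian, Firre, Vax2os, Srrm2, Son and Smg1. Over the 8 libraries, Pearson's r with the TEC index was 0.944 for Snhg20, 0.991 for A330023F24Rik, 0.994 for Mirg and 0.993 for Meg3. It was 0.95 for Rian, 0.964 for Firre, 0.972 for Vax2os, 0.969 for Srrm2 and 0.957 for Son. The part of the index in these calls was not tested. Mir22hg, Otx2os1, Srrm1, Nop10, Smg6 and Iqgap1 passed in none of the 4. Bc1 passed only without pair 3, Srsf1, Upf3b and Jag1 only without pair 5, and Srsf2 and Nop56 only without pair 4. Nfe2l2 passed only without pair 3 (adjusted p = 0.0182, and 0.0634 to 0.0846 otherwise). With pairs 1 and 3 alone, the calls numbered 1 among other snoRNA hosts, 3 among miRNA hosts, 5 among long noncoding RNAs and 4 among speckle and paraspeckle genes. They numbered 1 among snoRNP genes, 1 among decay factors, 2 among miR-124 targets and 0 among neighbours.

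Markers of other retinal cells differed between the groups as well, with calls from the fit with the block. Amacrine and horizontal cell markers were lower: 7 of 12 were measured, all 7 were lower in all 4 pairs, 3 passed with the block, and their summed level was 211 to 242 FPKM in WT and 163 to 206 in cKO. Ganglion cell markers (8 of 10 measured, 4 fell) summed to 75.6 to 103 and 57.1 to 79.1 FPKM. Bipolar cell markers (10 of 10 measured, 5 rose) summed to 1886 to 2385 and 2403 to 2926. Neurons are a known source of Mir124a-1hg, Snhg11, Miat and Meg3. Cone markers were mixed (7 of 8 measured, 4 fell and 1 rose; sums 90.8 to 121 and 101 to 117).

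Astrocyte markers (4 of 5 measured, 2 rose), which include Gfap, a gene that Müller cells also switch on in injury, summed to 113 to 264 FPKM in WT and 238 to 392 in cKO. Pericyte markers (2 of 5 measured) summed to 31.0 to 40.1 and 46.8 to 59.4 FPKM, and 1 of them, Rgs5, rose. Endothelial markers (2 of 6 measured, 0 passed) summed to 163 to 242 and 148 to 203, and the 1 measured of 5 pigment epithelium markers was at 1.81 to 5.58 and 2.55 to 5.40. Of 8 microglia markers, 0 were in the table. The part of these cells in the values of the 9 RNAs was not tested.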

How the data were processed

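The authors deposited 1 table of FPKM for 12339 genes and 8 libraries; the unit is that of the table's name. STAR and edgeR, and the builds GRCm38 and mm10, are named in the submitters' processing notes, without version or role. Counting, strand setting and gene filter are not given in the sources used here. The lowest mean FPKM was 2.001, so weaker genes could not be examined. Per the labels, poly(A)-selected directional libraries were made with NEBNext kits. Fragment totals are not given, so no counting error was computed.

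Values were log2(FPKM + 0.5), tested with limma 3.58.1 (R 4.3.3; lmFit, eBayes with trend; two-sided; Benjamini-Hochberg over 12339 genes; threshold 0.05), and checked on simulated data. FPKM differences of low genes are understated by the pseudocount. Same-numbered libraries' deviations from their group means correlated at 0.261, 0.591, 0.565 and 0.429 over genes. Each was over the 0.1 of the rule set, so the numbers were used as pairs. Differently numbered libraries could pass 0.1 too: WT 1 with cKO 3 was at 0.18 and WT 5 with cKO 4 at 0.211. The pairing is thus least clear for pair 1, and what a number marks is not labelled. Alternatives were pseudocounts, filters, scalings, weights, no trend, the block, the TEC covariate, and libraries or pairs left out.

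Gene classes and positions are from GENCODE M21 (12327 IDs matched), sequences from it and RefSeq GRCm38.p6. The 10 RNAs and all lists were chosen with earlier results of these data known. Named genes were the members, Hk1, Ube3a, Nfe2l2, the 4 genes of smallest p with the block in each list, and the 3 likest genes of 4 members; 1 of these is not reported here.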

Additional observations from a re-analysis of the deposited data

Results flagged for a closer look

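In 86 groups of 4 libraries, from 43 named genes, 2 held a library far from the other 3 by Dixon's criterion, which chance meets in about 1 in 20 groups. Snhg15, a snoRNA host, was at 13.3 FPKM in WT library 3, above the other WT libraries. Znhit6, a snoRNP assembly factor gene, was at 20.8 FPKM in cKO library 1, below the other cKO libraries. Neither gene passed the test between WT and cKO, and none of the 9 RNAs had such a library.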

How the results depend on the processing

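The number of genes past the threshold depended on the pairing. It was 0 without a block, also with each library left out, and 1 with library weights. With the replicate block it was 1305, with median-of-ratios scaling 1300, with equal column sums 1337, with quantile scaling 1058, and with a pseudocount of 0.1 or 1 it was 1285 or 1320. Without pair 1, 3, 4 or 5 it was 402, 606, 524 or 821, and pairs 1 and 3 alone, chosen after seeing the data, gave 923 on 1 residual degree of freedom. With the block and the TEC covariate together it was 0, over all genes and in every list. Within pairs the TEC index can hardly be told apart from the group, so this 0 does not show what the calls owe to the index. Filters at a mean FPKM of 0.5 or 2 removed no gene.

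The median log2 difference of the 9 RNAs (−0.29) stayed below 0 in all 31 other settings. It was −0.49 at a minimum mean FPKM of 5, which drops Hk1os, −0.55 with library weights and −0.05 with the TEC covariate. Leaving out 1 library gave −0.63 (without cKO 3) to −0.049 (without cKO 5), with −0.10 without WT 3 and −0.51 without WT 5. That of the other snoRNA hosts (−0.15) ran from −0.22 to −0.0084 with 1 library left out, and was −0.83 with the block and the TEC covariate together, a setting added after seeing the data that left 2 residual degrees of freedom. In that setting the index and the group could hardly be told apart, so its estimates are unstable and give no order of the RNAs. There Snhg12 was at −0.995, Snhg1 at −0.56, Gas5 at −0.44, Miat at −0.77 and Snhg11 at −0.51. Malat1 was at −0.30, Mir124a-1hg at 0.01, Neat1 at 0.11 and Hk1os at 0.79. Hk1os was positive in all 30 other settings that kept it, and Miat, Snhg11 and Gas5 negative in all 31. Malat1 was positive in 1, Mir124a-1hg in 1, Neat1 in 3, Snhg1 in 1 and Snhg12 in 6. These counts, also that of the median, come from refits of the same libraries and are no support for a difference. Many settings repeat an estimate: with the block, without a trend and at filters of 0.5 or 2, Hk1os stayed at 0.98.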
